A study of Homo sapiens with 38 samples.

Results

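The genes described here build and start replication origins. They are CDC6, CDT1, GMNN, ORC1, ORC2, ORC6, CDC7, DBF4 and CDC45, chosen by name as genes of origin licensing and origin firing, and every probe set annotated to one of them was taken. That gave 12 of 54613 probe sets, with 2 each for CDC6, CDT1 and ORC2 and 1 for each of the other 6 genes. They were followed across 19 groups of 2 microarrays made from IMR90 cells, a line of normal human fetal lung fibroblasts. In experiment 1, 32 arrays covered 4 growth states, each with 4 constructs. The states were growing in 10% serum, low serum (0.1%), confluent in 10% serum, and senescent after expression of ras, also in 10% serum. The constructs were the empty MLP vector and short hairpin RNAs against RB (shRB), p107 (shp107) and p130 (shp130), the proteins encoded by RB1, RBL1 and RBL2. Experiment 2 had 6 arrays, 2 each of vector cells while growing, vector cells in senescence and shRB cells in senescence. All 6 were of cells in 10% serum. The ras allele, the hairpin sequences and whether growing cells carried an empty ras vector are not given in the sources used here, so a senescence comparison also holds the effect of ras itself. The labels name 1 hairpin for each target.

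An origin is licensed in G1 phase, when the origin recognition complex (ORC) binds DNA, CDC6 and CDT1 join it, and the MCM helicase is loaded. Geminin, encoded by GMNN, binds CDT1 and blocks loading again outside G1. Loaded origins fire in S phase, when the kinase CDC7 with its activating subunit DBF4 phosphorylates MCM proteins and CDC45 joins the helicase with the GINS complex. Many of these genes are textbook targets of E2F transcription factors, which RB, p107 and p130 bind and restrain.

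All 9 genes have at least 1 window in the RefSeq promoter table (GRCh38.p14), 13 windows in all, each running from 250 bases before to 50 bases after an annotated start site. The windows of CDC6, CDT1, GMNN, CDC7 and DBF4 are shown because these 5 of the tested genes rose with shRB in senescent cells of experiment 2, and that of ORC6 because it rose with shp130. Capitals mark 2 kinds of E2F-like word, read on either strand. The first kind is any of TTTGGCGC, TTTCCCGC, TTTGCCGC and TTTCGCGC, and the second is TTTGGCGG, which was added after the sequences were seen. The CDC6 window is chr17:40287629-40287928, plus strand.
CDC6: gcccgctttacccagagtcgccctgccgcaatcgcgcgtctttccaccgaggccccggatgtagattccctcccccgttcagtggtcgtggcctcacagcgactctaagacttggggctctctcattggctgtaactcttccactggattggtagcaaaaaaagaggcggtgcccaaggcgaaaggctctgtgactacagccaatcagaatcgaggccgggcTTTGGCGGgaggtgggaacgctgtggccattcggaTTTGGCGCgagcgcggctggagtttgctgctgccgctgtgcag
The CDT1 window is chr16:88803539-88803838, plus strand, and its 2 words lie side by side without sharing a base.
CDT1: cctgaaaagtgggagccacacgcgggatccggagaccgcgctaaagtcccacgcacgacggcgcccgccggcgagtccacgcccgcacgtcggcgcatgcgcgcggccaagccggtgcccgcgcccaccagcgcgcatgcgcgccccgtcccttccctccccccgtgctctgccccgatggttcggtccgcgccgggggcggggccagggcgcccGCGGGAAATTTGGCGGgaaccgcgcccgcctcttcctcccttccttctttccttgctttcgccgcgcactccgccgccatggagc
The GMNN window is the second of 2, at chr6:24775163-24775462, plus strand.
GMNN: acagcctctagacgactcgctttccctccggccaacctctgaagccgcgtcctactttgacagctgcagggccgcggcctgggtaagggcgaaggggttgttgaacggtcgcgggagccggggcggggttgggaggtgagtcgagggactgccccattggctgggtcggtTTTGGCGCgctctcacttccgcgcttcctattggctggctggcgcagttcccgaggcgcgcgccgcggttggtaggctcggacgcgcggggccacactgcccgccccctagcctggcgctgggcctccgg
The CDC7 window is also the second of 2, at chr1:91500862-91501161, plus strand.
CDC7: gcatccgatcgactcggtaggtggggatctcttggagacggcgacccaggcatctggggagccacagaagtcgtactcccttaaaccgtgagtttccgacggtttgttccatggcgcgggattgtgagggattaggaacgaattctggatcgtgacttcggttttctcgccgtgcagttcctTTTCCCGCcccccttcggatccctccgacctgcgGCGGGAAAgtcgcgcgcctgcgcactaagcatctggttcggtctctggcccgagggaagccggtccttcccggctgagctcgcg
The DBF4 window is chr7:87876243-87876542, plus strand, and holds neither kind.
DBF4: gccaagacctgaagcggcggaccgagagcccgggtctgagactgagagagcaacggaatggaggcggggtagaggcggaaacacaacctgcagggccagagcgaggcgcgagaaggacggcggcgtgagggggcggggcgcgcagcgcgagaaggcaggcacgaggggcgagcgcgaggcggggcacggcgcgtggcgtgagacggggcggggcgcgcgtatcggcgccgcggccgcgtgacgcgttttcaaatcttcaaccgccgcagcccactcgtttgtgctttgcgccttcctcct
The ORC6 window, which holds neither kind as well, is chr16:46689409-46689708, plus strand.
ORC6: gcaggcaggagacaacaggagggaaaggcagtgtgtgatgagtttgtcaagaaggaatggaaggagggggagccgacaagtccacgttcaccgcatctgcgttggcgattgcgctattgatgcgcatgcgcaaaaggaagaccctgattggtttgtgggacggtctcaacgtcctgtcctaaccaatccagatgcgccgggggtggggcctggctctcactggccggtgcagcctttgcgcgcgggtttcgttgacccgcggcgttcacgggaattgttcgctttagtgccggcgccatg
A word of the first kind was found in 4 of the 9 genes (CDC6, CDT1, GMNN and CDC7), against 4.0% of the 27305 genes with a window and 3.3% of the 35116 windows. CDC7 held it 2 times, once on each strand, at positions -68 to -61 and -34 to -27 with the start base counted as 0. The word TTTGGCGG was found in CDC6, CDT1 and CDC45, against 0.8% of genes with a window. As it was added after these sequences were seen, nothing is read from that share. Neither kind was found in the windows of ORC1, ORC2, ORC6 or DBF4. Other elements of cell cycle promoters were searched on both strands as well. The words TTTGAA and TTCGAA of the cell cycle homology region were in the DBF4 window alone among the members, against 19.5% of genes, and CCAAT was in the windows of 6 members (CDC6, GMNN, ORC1, ORC2, ORC6 and CDC45), against 39.7% of genes. None of these words overlaps another in the windows printed. A match describes the letters of a window and does not show that a factor binds there.

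Array medians lay between log2 3.27 and 3.41, and 21.6% to 24.2% of probe sets exceeded log2 5. Replicates correlated with r of 0.9795 to 0.9969 over all probe sets. The number of arrays limits the precision. Groups of 2 arrays can lie apart without overlap where the test is not passed, and how many of all genes do so was not counted. The labels do not tell whether the 2 replicates of a group were grown apart, so each p-value rests on a spread between arrays that may be technical. RB1 fell with shRB in each state of experiment 1 (log2 change -4.05 to -5.32) and in experiment 2 (-2.28), and RBL2 fell with shp130 in each state (-2.35 to -2.88). RBL1 was not called with shp107 in any state (-0.74, -1.30, -0.48 and -0.13), so the arrays do not show the p107 knockdown. Its means in vector cells were 4.31, 4.32, 3.70 and 3.34 in these states. The confluent and senescent means lie near the array medians. The growing and low-serum means lie above them, and in senescent vector cells of experiment 2 the RBL1 mean was 2.53. The low-serum change with shp107 had an unadjusted p of 0.0242 (limma). Averaged over the 4 states RBL1 changed by -0.66 (unadjusted p = 0.0218, adjusted p = 0.173). The arrays thus do not settle whether p107 was lowered. Of 11 fibroblast markers, 10 exceeded log2 5 on some array. Of markers of other cell types, 1 of 7 epithelial (KRT18), 1 of 5 endothelial (TEK) and 0 of 3 blood markers did.

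The 9 genes lay at very different distances from background. A level here is the deposited log2 value of 1 probe set, so levels are compared between samples and not between genes. GMNN, ORC6 and DBF4 exceeded log2 5 on all 32 arrays of experiment 1. CDC6 exceeded it on 17, CDT1 on 10, ORC2 on 8 and CDC7 on 4, and ORC1 and CDC45 on none. ORC1, whose range over all 38 arrays was 2.30 to 3.64, and CDC45, at 3.33 to 4.83, therefore did not pass the filter on low values and are described apart. The 4 arrays on which CDC7 exceeded log2 5 were all shRB arrays, so this gene entered the test only through the hairpin that raises it. For CDC6, CDT1 and ORC2 the probe set with the higher mean represents the gene. Values near the array median are close to background, so a fall that ends there may understate the difference. In a bulk sample, fewer cells of a kind and less RNA per cell cannot be told apart.

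**Figure D1:**
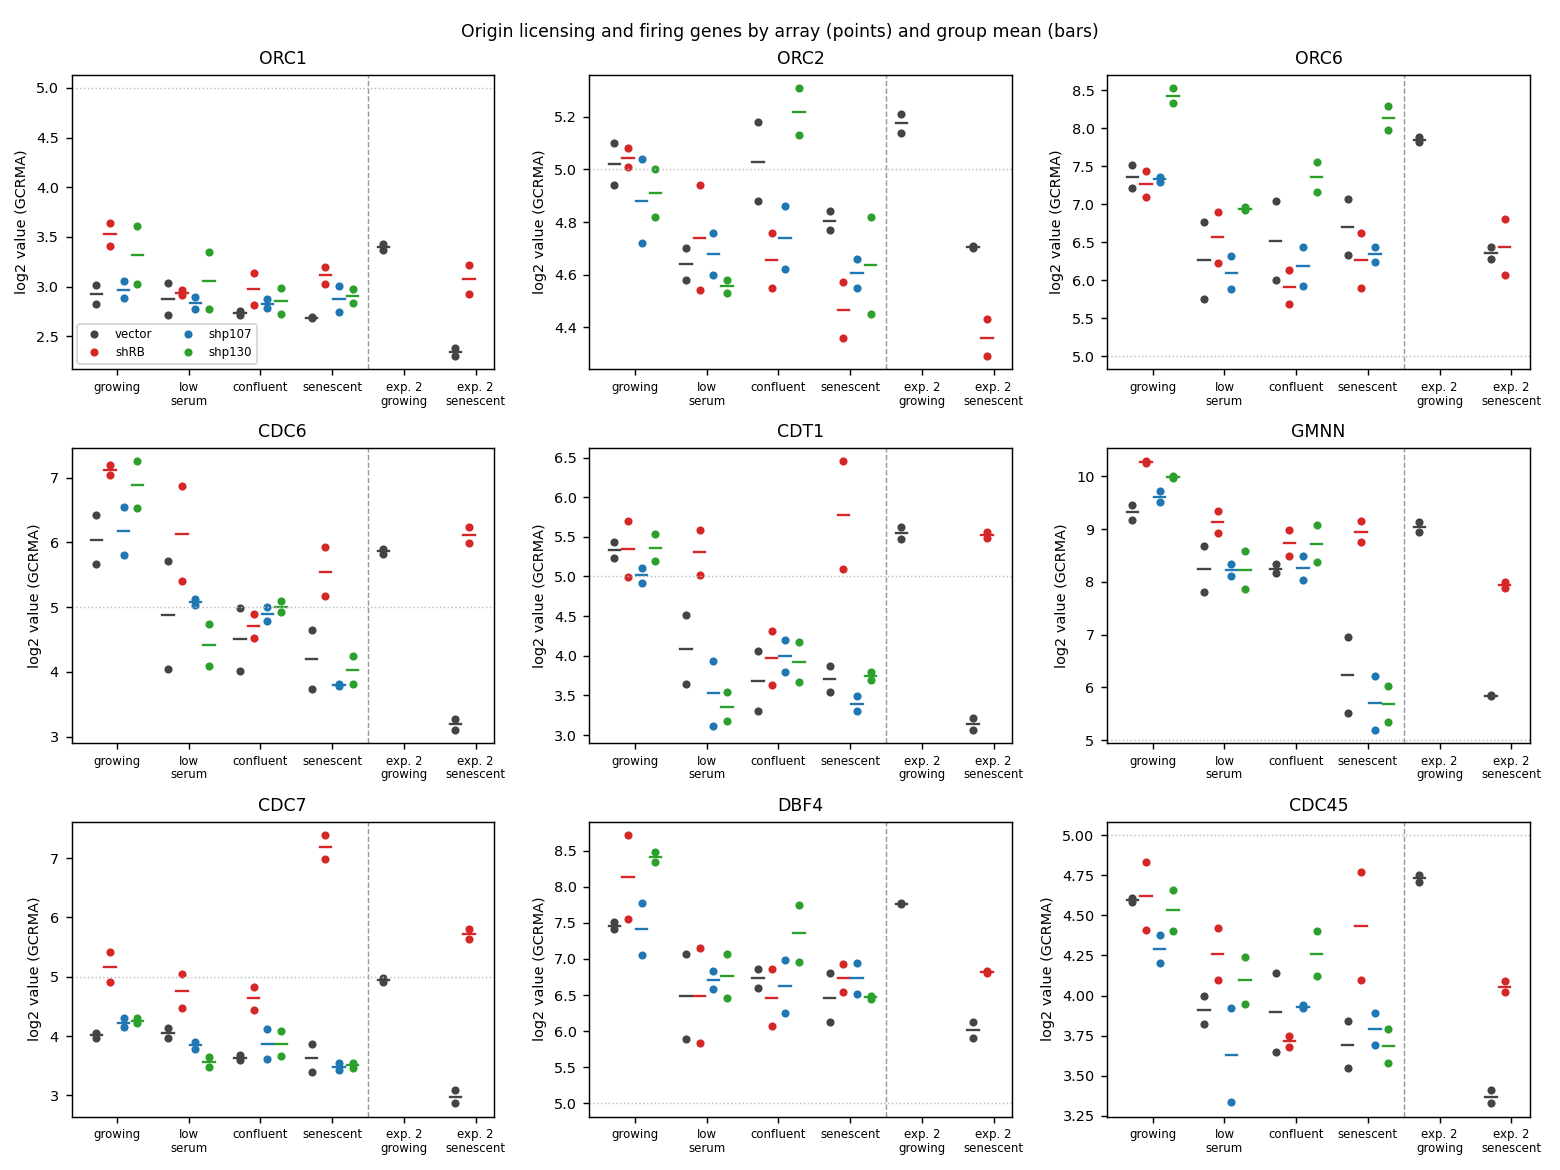
Log2 value of the 9 genes on each array (points, 2 per group) with the group mean (bar), by growth state and construct (colour). Experiment 2 is to the right of the dashed line, and the dotted line is the filter at log2 5. CDC7 at 6.98 and 7.39 in senescent shRB cells is above every other array. ORC6 is higher with shp130 than with vector in each of the 4 states, a difference called in senescent cells alone.

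In vector cells CDT1 fell in all 3 arrested states, CDC6 at confluence and in senescence, and GMNN in senescence, where it had the largest change of the tested members. CDT1, which brings the helicase to ORC, was 5.43 and 5.23 on the arrays of growing vector cells, 3.65 and 4.52 in low serum, 3.3 and 4.06 at confluence, and 3.87 and 3.55 in senescence. Every arrested array was below both growing arrays. CDT1 changed by -1.25 ± 0.40 (log2 change ± SE, limma, n = 2 per group, adjusted p = 0.0442) in low serum, -1.65 ± 0.40 (adjusted p = 0.00484) at confluence and -1.62 ± 0.40 (adjusted p = 0.00463) in senescence. CDC6, the ATPase that works with ORC, was 6.42 and 5.66 in growing vector cells. It was 4.04 and 5.72 in low serum, 4.99 and 4.02 at confluence, and 3.74 and 4.65 in senescence. The low-serum arrays overlapped the growing ones and were far apart (change -1.16 ± 0.50, adjusted p = 0.132), whereas CDC6 changed by -1.54 ± 0.50 at confluence (adjusted p = 0.0295) and by -1.85 ± 0.50 in senescence (adjusted p = 0.00943). The direction held without any single array, but several of these calls did not. CDT1 in low serum was not called without growing vector replicate 1 (adjusted p = 0.181) or 2 (0.138) or without low serum vector replicate 1 (0.405, change -0.81). CDT1 at confluence was not called without confluent vector replicate 1 (0.0654). CDC6 at confluence was not called without growing vector replicate 1 (0.204) or 2 (0.0503) or confluent vector replicate 2 (0.23), nor CDC6 in senescence without growing vector replicate 1 (0.111) or senescent vector replicate 1 (0.129). Without the filter on low values CDT1 in low serum (0.0804) and CDC6 at confluence (0.0597) were not called either. In a fit of the compared groups alone CDT1 in low serum (0.0745) and at confluence (0.0699) and CDC6 at confluence (0.128) were lost, as were CDT1 in low serum with centred arrays (0.0521) and CDC6 at confluence with the mean of its probe sets (0.0687).

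GMNN stood at 9.17 and 9.46 in growing vector cells and at 5.51 and 6.95 in senescent vector cells. Both senescent arrays were below every vector array of the other states, the nearest of which was 7.81 in low serum. The change was -3.09 ± 0.41 (limma, adjusted p = 8.36e-06), an 8.52-fold fall, and it was called without each array in turn. In low serum (7.81 and 8.68) and at confluence (8.34 and 8.16) GMNN also lay below the growing arrays, but the changes of -1.07 in both did not pass the test (adjusted p = 0.0888 and 0.0603). ORC6, the smallest ORC subunit, was 7.51 and 7.21 in growing cells. It was 5.75 and 6.77 in low serum (-1.10 ± 0.36, adjusted p = 0.0503), 6.0 and 7.04 at confluence (-0.84, adjusted p = 0.0996) and 6.33 and 7.07 in senescence (-0.66, adjusted p = 0.203). The low-serum value sits at the threshold and passed it with low serum vector replicate 2 left out (-1.61, adjusted p = 0.0167). DBF4 was 7.41 and 7.51 in growing cells and did not pass the test in low serum (-0.98), at confluence (-0.73) or in senescence (-1.0, adjusted p = 0.123). CDC7 was not called in any of these comparisons (0.04, -0.38 and -0.39), at 3.97 and 4.06 in growing, 3.96 and 4.14 in low-serum, 3.68 and 3.59 in confluent and 3.87 and 3.39 in senescent vector cells, which is close to background. ORC2 changed by -0.38 in low serum, by 0.01 at confluence and by -0.21 in senescence and was not called.

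Read against all genes, the counts of members called were 1 of the 7 tested in low serum, 2 at confluence and 3 in senescence, all lower. Over all 8511 genes tested, 6.36%, 14.5% and 16.2% were called lower in these comparisons. Without the filter, over 19775 genes, the median change of the 9 members in senescence was -0.89 against -0.01 for all genes. In low serum and at confluence it was -0.98 against 0.02 and -0.73 against 0.01. The 3 comparisons share the growing vector arrays.

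In experiment 2, 6 of the 7 tested members fell in senescence, the firing kinase genes among them. CDC6 went from 5.82 and 5.90 in growing vector cells to 3.11 and 3.28 in senescent vector cells (-2.66 ± 0.17, adjusted p = 8.67e-06). CDT1 went from 5.47 and 5.63 to 3.07 and 3.21 (-2.41 ± 0.17, adjusted p = 1.22e-05), and GMNN from 9.14 and 8.95 to 5.86 and 5.83 (-3.20 ± 0.17, adjusted p = 2.5e-06). CDC7 went from 4.91 and 4.98 to 3.09 and 2.87 (-1.96 ± 0.17, adjusted p = 4.72e-05), and DBF4 from 7.76 and 7.77 to 6.13 and 5.91 (-1.74 ± 0.17, adjusted p = 7.78e-05). ORC6 fell from 7.82 and 7.88 to 6.44 and 6.28 (-1.49 ± 0.24, adjusted p = 0.00157), while ORC2 (-0.47 ± 0.16, adjusted p = 0.0503) did not pass. Of the 7 tested members 6 were called lower, against 20.6% of all genes. Replicates of these groups lay closer together than in experiment 1, and the fit had 3 residual degrees of freedom against 16. CDC7 started higher in experiment 2 (4.91 and 4.98) than in the growing vector arrays of experiment 1 (3.97 and 4.06). The experiments were fitted apart and the difference between them was not tested.

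With the RB hairpin, CDC7, GMNN and CDT1 were higher in senescent cells, and in experiment 2 CDC6 and DBF4 as well. CDC7, the catalytic subunit of the firing kinase, was 7.39 and 6.98 in senescent shRB cells against 3.87 and 3.39 in senescent vector cells. The change was 3.56 ± 0.24 (limma, adjusted p = 1.95e-09), and adjusted p was 4.41e-09 without the filter on low values. The vector arrays lie near the array medians, so this change may be understated. GMNN was 9.15 and 8.75 against 5.51 and 6.95, a rise of 2.72 ± 0.41 (adjusted p = 0.00012). Its senescent shRB arrays were thus just below the growing vector arrays (9.17 and 9.46). CDT1 was 6.45 and 5.09 against 3.87 and 3.55, a rise of 2.06 ± 0.40 (adjusted p = 0.0017), with replicates well apart. Without senescent shRB replicate 1 the CDT1 change was 1.39 and was not called (adjusted p = 0.0614), nor was it in a fit of the compared groups alone (0.0838), whereas CDC7 and GMNN were called without each array. CDC6 was 5.93 and 5.17 against 3.74 and 4.65, without overlap, but its change of 1.36 ± 0.50 did not pass (adjusted p = 0.103). DBF4 (0.27), ORC2 (-0.34) and ORC6 (-0.44) did not pass either. The 3 members called higher, CDC7 among them, compare with 5.98% of all genes. Without the filter 3 of 9 were called higher, against 2.78% of all genes, and the median change of the 9 was 0.73 against 0.03.

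**Figure D2:**
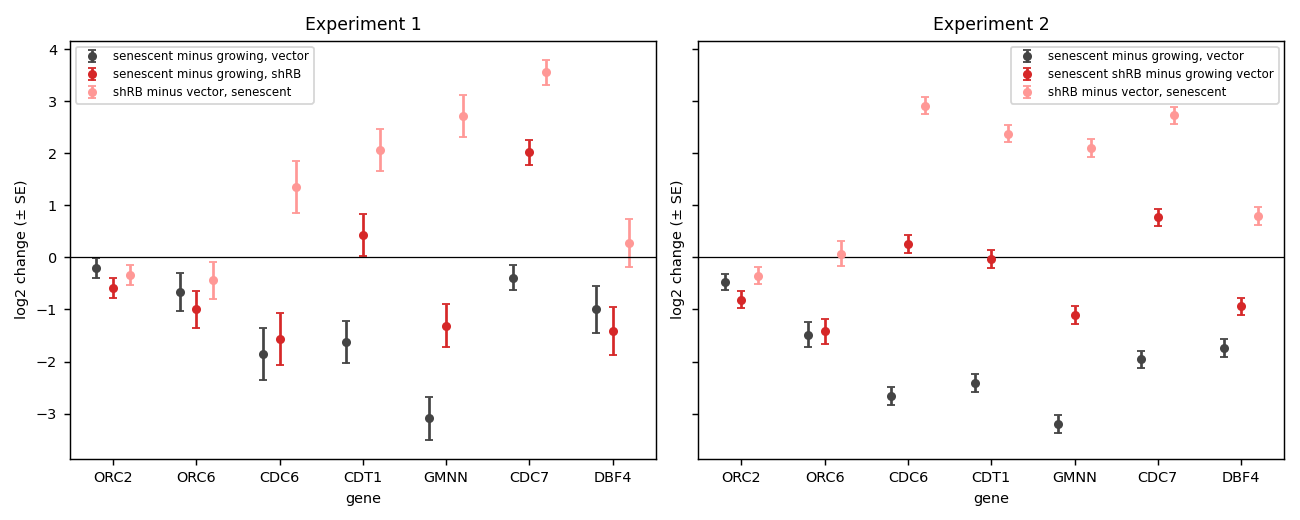
Log2 change ± SE of the 7 tested genes in experiment 1 (left) and experiment 2 (right), for senescent against growing vector cells (black), senescent shRB against growing shRB or, in experiment 2, growing vector cells (red), and shRB against vector in senescent cells (pink). GMNN fell by 3.09 and 3.20 in vector cells, CDC7 with shRB rose by 3.56 and 2.73 in senescent cells, and ORC2 and ORC6 showed no rise with shRB that passed the test.

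Experiment 2 gave the same comparison in arrays of its own. CDC6 was 5.99 and 6.24 in senescent shRB cells against 3.11 and 3.28 in senescent vector cells (2.92 ± 0.17, adjusted p = 0.00015). CDC7 was 5.63 and 5.80 against 3.09 and 2.87 (2.73 ± 0.17, adjusted p = 0.00015), CDT1 5.48 and 5.56 against 3.07 and 3.21 (2.38 ± 0.17, adjusted p = 0.000199), and GMNN 8.0 and 7.89 against 5.86 and 5.83 (2.10 ± 0.17, adjusted p = 0.000287). No group overlapped. DBF4 rose less, from 6.13 and 5.91 to 6.83 and 6.81 (0.80 ± 0.17, adjusted p = 0.0143), and this call was lost without senescent vector replicate 1 (adjusted p = 0.0949) or 2 (0.199) or senescent shRB replicate 2 (0.0531). ORC6 (0.07) and ORC2 (-0.35) were not called. Thus 5 of the 7 tested members were higher, against 10.9% of all genes. This count includes CDC7, which passed the filter only through shRB arrays. Without the filter 7 of 9 members were called higher, against 6.22% of all genes.

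Against growing vector cells of experiment 2, senescent shRB cells had lower levels of 4 members and a higher level of CDC7, while the loading factors CDC6 and CDT1 were not called. The change was 0.26 ± 0.17 for CDC6 (adjusted p = 0.291) and -0.03 ± 0.17 for CDT1 (adjusted p = 0.911). GMNN (-1.10, adjusted p = 0.00139), DBF4 (-0.94, adjusted p = 0.00301), ORC6 (-1.42, adjusted p = 0.00251) and ORC2 (-0.81, adjusted p = 0.00555) were lower. CDC7 was higher than in growing vector cells, by 0.77 ± 0.17 (adjusted p = 0.00985). These 4 lower and 1 higher of 7 compare with 18.4% of all genes called lower and 15% called higher. Without the filter, which CDC7 passed only through shRB arrays, 5 of 9 were lower and 1 higher, against 10.5% and 9.5%. The comparison shares its arrays with both others of experiment 2, and it changes the hairpin and the state together.

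At confluence CDC7 was the member that rose with the RB hairpin, in growing cells its call was lost without the filter, and in low serum no member passed the test. CDC7 was 5.41 and 4.92 with shRB against 3.97 and 4.06 in growing cells (1.15 ± 0.24, limma, adjusted p = 0.0476). It was 4.47 and 5.04 against 3.96 and 4.14 in low serum (0.70 ± 0.24, adjusted p = 0.386), and 4.44 and 4.83 against 3.68 and 3.59 at confluence (1.00 ± 0.24, adjusted p = 0.00544). The shRB arrays were above the vector arrays in each state. How many of all genes show such a pattern was not counted, so nothing is read from it alone. The growing call was lost without any 1 of its 4 arrays (adjusted p from 0.1 to 0.453) and without the filter on low values (0.0626), and the confluent call without confluent shRB replicate 2 (0.80, adjusted p = 0.0745). At confluence CDC7 was also not called in a fit of the compared groups alone (0.162), but was without the filter (0.00677), against 2.92% of all genes called higher in that fit. Among the filtered genes 0.0822% were called higher in growing cells and 7% at confluence, and since CDC7 passed the filter only through shRB arrays, nothing is read from its 1 call of 7 against these shares. In low serum limma called 0 of the 7 members, 4 of them having an unadjusted p under 0.05, and 0.0822% of all genes were called in either direction. Those 4 were CDC6 (1.26), CDT1 (1.22), GMNN (0.89) and CDC7 (0.70), all higher with shRB. In growing cells CDC6 (7.04 and 7.20 against 6.42 and 5.66) and GMNN (10.25 and 10.28 against 9.17 and 9.46) were above vector without overlap, with adjusted p of 0.761 and 0.67. CDT1 was 5.70 and 4.99 in growing shRB cells, on either side of the vector arrays.

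The difference of the shRB effect between states was itself tested. For CDC7 the effect in senescent cells exceeded that in growing cells by 2.41 ± 0.34 (limma, adjusted p = 0.000229), that in low serum by 2.86 ± 0.34 (adjusted p = 2.77e-05) and that at confluence by 2.56 ± 0.34 (adjusted p = 2.81e-05). All 3 differences were called without each of their 8 arrays. CDC7 was the 1 member called against growing cells and against low serum, where 1.34% and 1.26% of all genes were called higher. Since CDC7 passed the filter only through shRB arrays, nothing is read from its call against these shares. Against confluence 3 members were called, with 8.34% of all genes, since GMNN (2.23 ± 0.58, adjusted p = 0.0123) and CDT1 (1.78 ± 0.57, adjusted p = 0.041) joined CDC7. Without the filter 1, 1 and 2 of 9 members were called higher in the 3 comparisons in turn. The shares of all genes in that fit were 0.48%, 0.455% and 3.22%. The GMNN call was lost without confluent shRB replicate 1 (1.99, adjusted p = 0.0632), senescent vector replicate 1 (1.51, adjusted p = 0.0922) or senescent shRB replicate 1 (2.03, adjusted p = 0.0532). The CDT1 call was lost without any of 5 arrays, with a change of 1.10 and an adjusted p of 0.233 at most when senescent shRB replicate 1 was left out. Those 5 were replicate 2 of confluent vector, replicate 1 of confluent shRB, both replicates of senescent vector and replicate 1 of senescent shRB. CDT1 was also not called without the filter (0.0756), with centred arrays (0.051) or with the compared groups alone (0.2), nor GMNN with the compared groups alone (0.104). The 3 differences share the senescent arrays.

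**Figure D3:**
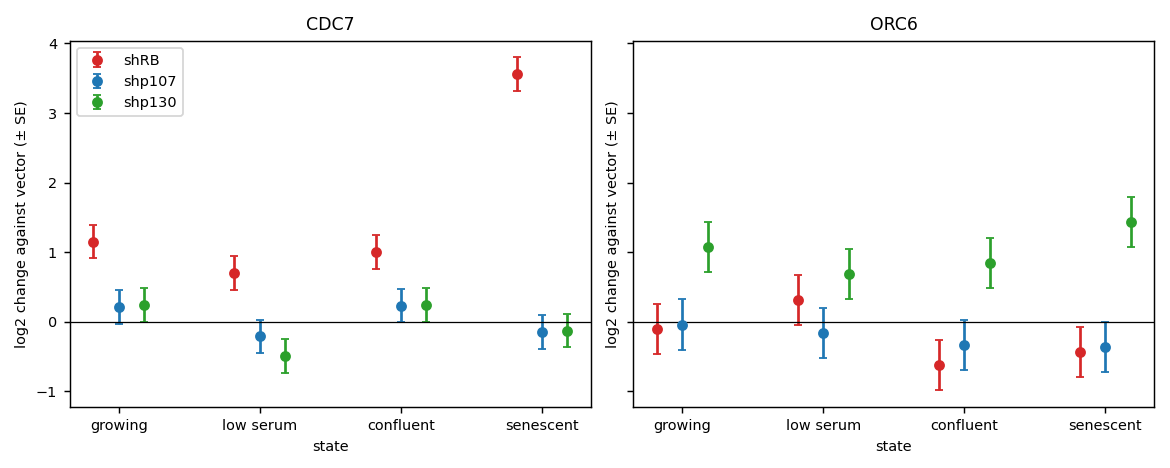
Log2 change ± SE of CDC7 (left) and ORC6 (right) against vector in each growth state of experiment 1, for shRB (red), shp107 (blue) and shp130 (green). CDC7 changed with shRB by 3.56 in senescent cells against 0.70 to 1.15 in the other states, where 0.70 in low serum was not called. ORC6 changed with shp130 by 0.68 to 1.44 in the 4 states and was called in senescent cells alone. That call was lost without any 1 of its 4 arrays.

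Averaged over the 4 states, a comparison added after the values were seen, 4 members rose with shRB, against 7.37% of all genes. One of them, CDC7, passed the filter only through shRB arrays. Without the filter 5 of 9 members were called higher, against 3.14% of all genes. CDC7 changed by 1.60 ± 0.12 (limma, adjusted p = 1.13e-08), GMNN by 1.26 ± 0.20 (adjusted p = 0.000236), CDC6 by 0.97 ± 0.25 (adjusted p = 0.0112) and CDT1 by 0.90 ± 0.20 (adjusted p = 0.0041). Each was called without each of the 16 arrays, but CDC6 was not in a fit of the compared groups alone (0.0605). ORC1, tested only without the filter, also passed (0.34 ± 0.10, adjusted p = 0.0432). DBF4 (0.18), ORC2 (-0.15) and ORC6 (-0.21) were not called.

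Within shRB cells 5 of the 7 tested members fell at confluence and 5 in senescence, where CDC7 rose. From growing to confluent shRB cells CDC6 went from 7.04 and 7.20 to 4.52 and 4.90 (-2.41 ± 0.50, limma, adjusted p = 0.00362). DBF4 (-1.68, adjusted p = 0.0218), GMNN (-1.53, adjusted p = 0.0191), CDT1 (-1.37, adjusted p = 0.0308) and ORC6 (-1.36, adjusted p = 0.0195) also fell, so that 5 of 7 members were called lower against 8.04% of all genes. In low serum DBF4 alone was called, going from 7.56 and 8.72 to 5.83 and 7.15 (-1.65 ± 0.46, adjusted p = 0.0349), against 3.54% of all genes. From growing to senescent shRB cells CDC6 (-1.57, adjusted p = 0.0203), DBF4 (-1.41, adjusted p = 0.0224), GMNN (-1.31, adjusted p = 0.0171), ORC6 (-1.0, adjusted p = 0.0403) and ORC2 (-0.58, adjusted p = 0.0207) were lower, which is 5 of 7 against 20.4% of all genes. CDC7 rose from 5.41 and 4.92 to 7.39 and 6.98 (2.02 ± 0.24, adjusted p = 9.72e-07), the 1 member called higher, against 12.4% of all genes. As CDC7 passed the filter only through shRB arrays, nothing is read from this share. Without the filter 1 of 9 members was called higher, against 5.94% of all genes. CDT1 was 6.45 and 5.09 in senescent against 5.70 and 4.99 in growing shRB cells and did not pass (0.43, adjusted p = 0.448). Single arrays decided many of these calls. At confluence the count fell from 5 to 0 without confluent shRB replicate 1, where CDC6 was at -2.22 with adjusted p = 0.0531, and to 2 without growing shRB replicate 1 or 2. In senescence it fell from 6 to 2 without growing shRB replicate 1, and to 1, namely CDC7, without growing shRB replicate 2 or senescent shRB replicate 2. ORC2 and ORC6 in senescence were also lost with quantile normalization (0.0522 and 0.0735), and CDT1 at confluence without the filter (0.0561). DBF4 in low serum was not called without growing shRB replicate 2 (-1.07, adjusted p = 0.34) or low serum shRB replicate 1 (-0.99, adjusted p = 0.339).

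With the p130 hairpin ORC6 rose in senescent cells, and with the p107 hairpin no member passed the test. ORC6 was 8.53 and 8.33 with shp130 against 7.51 and 7.21 with vector in growing cells. It was 6.96 and 6.92 against 5.75 and 6.77 in low serum, 7.16 and 7.55 against 6.0 and 7.04 at confluence, and 8.29 and 7.98 against 6.33 and 7.07 in senescence. The shp130 arrays were above the vector arrays in all 4 states without overlap, narrowly in low serum and at confluence. The share of all genes with such a pattern was not counted, so nothing is read from it alone. The senescent shp130 arrays were above the growing vector arrays. The change was 1.44 ± 0.36 in senescent cells (limma, adjusted p = 0.0466), the 1 member called of 7 against 0.775% of all genes called higher. It was 1.07 in growing cells (adjusted p = 0.857), 0.68 in low serum (adjusted p = 1) and 0.84 at confluence (adjusted p = 0.928), and not called. The senescent call was lost without any 1 of its 4 arrays (adjusted p from 0.0668 to 0.372, change from 1.07 to 1.81) and without the filter on low values (0.0725). Averaged over the 4 states, again a comparison added after the values were seen, ORC6 rose by 1.00 ± 0.18 (adjusted p = 0.00547), against 0.564% of all genes, and was called without each of the 16 arrays. The ORC6 probe set is of the kind whose probes can match more than 1 transcript, and the gene has no other on the array.

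For the remaining members with shp130, limma called 0 of 7 in growing cells (2 at an unadjusted p under 0.05, ORC6 and DBF4), 0 in low serum (0) and 0 at confluence (1, ORC6). Over all genes 0.0587%, 0.27% and 0.0235% were called in either direction. DBF4 was 8.49 and 8.35 in growing shp130 cells against 7.41 and 7.51 with vector, without overlap, but its change of 0.96 had an adjusted p of 0.998. CDC6 was 6.53 and 7.25 there and GMNN 9.97 and 10.01, both above vector without passing the test (0.85 and 0.67). CDC7 and CDT1, which rose with shRB in senescence, changed by -0.13 and 0.04 with shp130 in that state. With shp107 limma called 0 of 7 members in each of the 4 states and in their mean, and 0 at an unadjusted p under 0.05 in each. Over all genes 0%, 0.0352%, 13.5% and 7.84% were called in the growing, low-serum, confluent and senescent comparison in turn, and 5.55% in the mean. The member with the largest change was CDT1 in low serum (3.12 and 3.94 against 3.65 and 4.52, a change of -0.56).

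**Figure D4:**
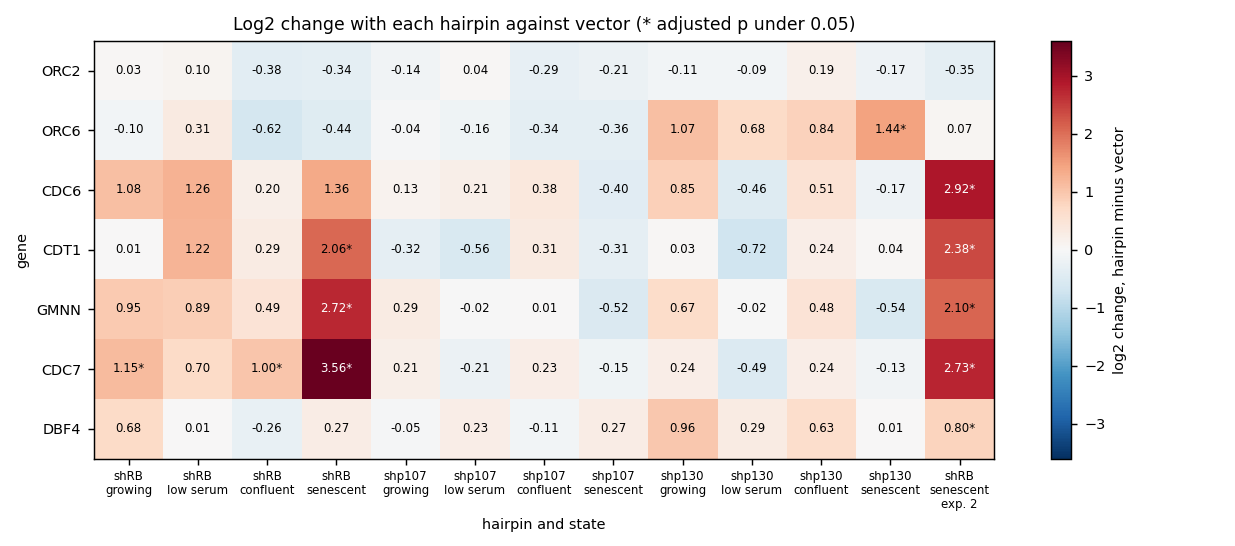
Log2 change of the 7 tested genes (rows) with each hairpin against vector in the same state (columns), red higher and blue lower, with an asterisk where the adjusted p was under 0.05. Asterisks stand at CDC7 for shRB in growing (1.15), confluent (1.00) and senescent cells (3.56), at CDT1 and GMNN for senescent shRB, at ORC6 for senescent shp130 (1.44), and at 5 genes for shRB in experiment 2.

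The hairpins were also compared with each other in senescent cells. CDC7 was 7.39 and 6.98 with shRB, 3.43 and 3.54 with shp107 and 3.46 and 3.55 with shp130. It was higher with shRB by 3.70 ± 0.24 than with shp107 (limma, adjusted p = 2.49e-09) and by 3.68 ± 0.24 than with shp130 (adjusted p = 1.1e-09). GMNN was 6.21 and 5.20 with shp107 and 6.03 and 5.34 with shp130, lower than with shRB by 3.25 and 3.26 ± 0.41 (adjusted p = 1.22e-05 and 1.02e-05). CDT1 was higher with shRB by 2.37 (adjusted p = 0.000307) and 2.02 ± 0.40 (adjusted p = 0.00172), the second not called without senescent shRB replicate 1 (1.34, adjusted p = 0.0699). CDC6 was higher than with shp107 by 1.76 ± 0.50 (adjusted p = 0.0162) but not called against shp130 (1.52, adjusted p = 0.0506). The CDC6 call was lost without senescent shRB replicate 1 (1.38, adjusted p = 0.137) or senescent shp107 replicate 2 (1.74, adjusted p = 0.114). In a fit of the compared groups alone CDT1 was not called against shp107 (0.0779) or shp130 (0.0683), nor CDC6 against shp107 (0.0767). ORC6 ran the other way, lower with shRB (6.62 and 5.90) than with shp130 (8.29 and 7.98), a difference of -1.87 ± 0.36 (adjusted p = 0.00143). Thus 4 of 7 members were higher against shp107, with 11.6% of all genes, and against shp130 3 were higher, with 7.87%, and 1 lower, with 4.7%. These counts include CDC7, which passed the filter only through shRB arrays. Without the filter 4 of 9 were higher against shp107, with 4.83% of all genes. Against shp130 3 of 9 were then higher, with 3.46%, and 1 lower, with 2.2%. Both comparisons share the senescent shRB arrays.

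ORC1, the large ATPase subunit of ORC, and CDC45, the helicase partner, stayed below log2 5 on every array and were tested only without the filter, over 19775 genes. CDC45 was 4.61 and 4.58 in growing and 3.55 and 3.84 in senescent vector cells (-0.89 ± 0.23, limma, adjusted p = 0.0118). In experiment 2 it was 4.75 and 4.71 against 3.41 and 3.33 (-1.36 ± 0.12, adjusted p = 0.000119). With shRB it was 4.77 and 4.10 in senescent cells (0.73, adjusted p = 0.0777), and in experiment 2 4.02 and 4.09 (0.68 ± 0.12, adjusted p = 0.0119). CDC45 also fell from growing to confluent shRB cells (-0.91, adjusted p = 0.0247). ORC1 was under the array median on 33 of the 38 arrays. It was 2.82 and 3.02 in growing and 2.69 and 2.68 in senescent vector cells (-0.23, adjusted p = 0.582). In experiment 2 it went from 3.37 and 3.43 to 2.38 and 2.30 in senescence (-1.06 ± 0.14, adjusted p = 0.00101) and was 2.93 and 3.22 with shRB (0.73 ± 0.14, adjusted p = 0.0154). With these genes included, 9 of 9 members were called lower in senescence in experiment 2, against 11.7% of the 19775 genes, and 7 of 9 higher with shRB, against 6.22%.

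The second probe sets did not all move with the first. They were tested with limma over all 41091 probe sets that name 1 gene, without the filter, and the adjusted p-values of the second probe sets come from that fit. For CDC6 the dimmer probe set was 4.77 and 5.07 in growing and 3.68 and 3.54 in senescent vector cells, and was not called (-1.31, adjusted p = 0.125). Nor was it called in vector cells at confluence (-0.71, adjusted p = 0.46) or in low serum (-0.24, adjusted p = 0.862). It was called in both comparisons with senescent vector cells of experiment 2 (-2.34 in senescence and 2.46 with shRB). The mean of the 4 states with shRB was called as well (0.87, adjusted p = 0.0446). The other CDT1 probe set never exceeded 3.63 and was called in experiment 2 alone, at -0.64 (adjusted p = 0.0115) and 0.73 (adjusted p = 0.0139). ORC2, a core subunit of ORC, varied little by its brighter probe set, which ranged from 4.29 to 5.31. Its dimmer one, with a range of 2.79 to 4.61, fell in senescent vector cells (-0.67, adjusted p = 0.0186) and in experiment 2 (-1.05, adjusted p = 0.00624). At confluence it was 3.33 and 3.77 with shRB and 3.69 and 3.67 with shp107 against 4.51 and 4.17 with vector, with changes of -0.79 (adjusted p = 0.00842) and -0.66 (adjusted p = 0.0344). The brighter one changed by -0.38 with shRB at confluence and was not called. Elsewhere the 2 differed in sign or size. With shRB in senescent cells the brighter changed by -0.34 and the dimmer by 0.20. The shRB effect in senescent cells minus that at confluence was 0.99 for the dimmer (adjusted p = 0.0246) and 0.04 for the brighter. The CDT1 probe set that represents the gene is, like those of ORC6, GMNN, DBF4 and CDC45, of a kind that can match more than 1 transcript. So are the dimmer probe sets of CDC6 and CDT1.

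Other genes of licensing and firing, a list of 47 of which 37 passed the filter, gave the setting for the members. The list holds the MCM helicase, the GINS complex, further ORC subunits, polymerase and primase subunits, and the cyclins, kinases and ubiquitin ligase parts that act on licensing. In vector cells 7 of 37 were called lower in low serum, 15 at confluence and 16 in senescence, against 6.36%, 14.5% and 16.2% of all genes, and none higher in these comparisons. The largest changes were CDK2 (-2.41), CCNA2 (-2.41) and GINS2 (-2.24) in low serum, and MCM5 (-2.76), CCNA2 (-2.74) and GINS1 (-2.20) at confluence. In senescence they were FBXO5 (-3.79), an inhibitor of the anaphase-promoting complex, SKP2 (-3.59), a ubiquitin ligase subunit that targets CDT1, and DTL (-3.09), the CUL4 adaptor that targets CDT1 in S phase. In experiment 2 senescence 27 were lower, against 20.6% of all genes, led by FBXO5 (-3.58), GINS2 (-3.42) and DTL (-3.32), and 1, CCNE1 (0.83), was higher.

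With shRB the same list moved most in senescent cells, where 17 of 37 were called higher, against 5.98% of all genes, and none lower. CCNE2, a cyclin that activates CDK2, rose by 5.10 ± 0.42 (limma, adjusted p = 3.54e-08), the helicase subunit MCM6 by 3.88 ± 0.26 (adjusted p = 1.95e-09) and the replication fork protein TIPIN by 3.64 ± 0.39 (adjusted p = 1.52e-06). MCM6 was 10.31 and 10.64 in senescent shRB cells against 6.52 and 6.67 with vector. In experiment 2, 26 of 37 were higher, against 10.9% of all genes, and none lower, led by CCNE2 (4.32), DTL (3.26) and PRIM1 (2.87). In growing and low-serum cells 1 each was called, CCNE2 (2.15, adjusted p = 0.0347) and MCM6 (1.62, adjusted p = 0.0122), against 0.0822% of all genes in each. At confluence 5 were higher, against 7% of all genes, led by MCM5 (1.77) and MCM6 (1.46), and CDK2 was lower (-1.51). Within shRB cells 9 of 37 were lower in low serum and 23 at confluence, against 3.54% and 8.04% of all genes. In senescence 12 were lower, against 20.4%, led by FBXO5 (-3.35), CCNA2 (-3.0) and GINS1 (-2.60), and 3 were higher, against 12.4%, namely CCNE2 (2.06), TIPIN (1.83) and CCNE1 (1.79). The shRB effect in senescence exceeded that in growing cells for 8 of 37, that in low serum for 7 and that at confluence for 10, against 1.34%, 1.26% and 8.34% of all genes. With shp130 in senescent cells 2 of 37 were called, GINS4 (1.86, adjusted p = 0.00186) and MCM4 (1.26, adjusted p = 0.00657), both higher, against 0.775% of all genes. Both were also higher in the mean of the 4 states (0.84 and 0.55), the comparison in which ORC6 rose. The other ORC subunits tested, ORC3, ORC4 and ORC5, were not called with shp130 in any state. With shp107, 0 of 37 were called in growing or low-serum cells, and 3 each at confluence (1 higher) and in senescence (2 higher), against 13.5% and 7.84% of all genes.

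The members did not share 1 pattern over the 16 groups of experiment 1. As a description over group means of 2 arrays each, with shared control groups and no test, CDC6 correlated with the mean of the other tested members at r of 0.918, DBF4 at 0.798, CDT1 at 0.788 and GMNN at 0.768. ORC2 (0.404), ORC6 (0.378) and CDC7 (0.305) followed it less closely. CDC6 was most like GMNN (0.881) and CDT1 (0.864) among the members. CDC7 was most like CDT1 (0.73), and its correlation with its own partner DBF4 was 0.138. The CDC7 group mean was 7.19 in senescent shRB cells and at most 5.17 in the other groups of experiment 1. Its correlations therefore rest largely on 1 group of 2 arrays, and do not show that the partners are uncoupled. The genes other than the 9 members nearest to the members' mean profile were DTL (0.965), FANCI (0.955), UBE2T (0.952), RRM2 (0.947), NCAPG2 (0.934), NCAPG (0.931), ZNF367, GINS1 and RNASEH2A (each 0.927) and ZWINT (0.925). The gene nearest to CDC7 was TIPIN (0.969), to GMNN PCLAF (0.983), to CDC6 DTL (0.966), to CDT1 ZNF367 (0.949), to DBF4 KIF18A (0.943), to ORC6 VRK1 (0.902) and to ORC2 LAMA1 (0.891).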

How the data were processed

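Biotin-labelled cRNA from 38 samples was hybridised to Affymetrix arrays. The deposited values are log2 values, 1 per probe set and array, made by the authors with GCRMA per the submitters' processing notes, and they were used as deposited. The sources used here do not state if both experiments were normalized in 1 run. Of 54613 probe sets, 41091 name 1 gene, 1801 several and 11721 none in the platform annotation used, and 41037 were matched to a RefSeq gene ID. For each of 19775 genes, the brightest probe set on average among those naming it alone was taken. The test covered the 8511 of them that passed log2 5 on 2 or more arrays of experiment 1.

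Each experiment had its own fit, made in R 4.3.3 with limma 3.58.1 and data.table (version 1.17.8), with 1 mean per group, 23 contrasts in experiment 1 and 3 in experiment 2, and eBayes (residual degrees of freedom 16 and 3, prior 4.85 and 5.35). P-values were adjusted by the Benjamini-Hochberg method over all genes tested in a contrast, and called means an adjusted p under 0.05. Errors are standard errors of the contrast. The comparisons of a hairpin with vector over the mean of the 4 states, 3 in all, and the word TTTGGCGG were added after values or sequences were seen.

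The members, gene lists and tests were chosen with earlier results of these data known. Named genes were all members with every probe set, the 3 hairpin targets, up to 3 called genes of the pathway list with the largest absolute change in each state or shRB comparison, and the genes most alike in pattern. The GINS4, MCM4, CCNE1 and ORC3 to ORC5 values outside these were named after they were seen. Alternatives were quantile normalization, centring on array medians, other filters, the mean of all probe sets of a gene, every probe set tested, a fit of the compared groups alone, an intensity trend, a replicate block and leaving out each array. The main fit did not pair arrays by replicate number, as the labels do not say whether the numbers pair them. Marker lists gave log2 ranges of 2.94 to 13.59 (fibroblast), 2.24 to 8.83 (epithelial), 2.41 to 9.52 (endothelial) and 2.53 to 3.92 (blood). Tables and figures were made with Python 3.11.15, numpy 2.4.6, pandas 2.3.3 and matplotlib 3.10.9.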

Additional observations from a re-analysis of the deposited data

Results flagged for a closer look

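The effect of the RB hairpin on CDC7 differed between growth states by a test of the difference itself. It was larger in senescent cells than in growing cells by 2.41, than in low serum by 2.86 and than at confluence by 2.56 on the log2 scale. Against confluence the effect in senescent cells was also larger for GMNN, by 2.23, and for CDT1, by 1.78. The GMNN difference was not called without any 1 of 3 arrays or in a fit of the compared groups alone (adjusted p = 0.104, limma). The CDT1 difference was not called without any 1 of 5 arrays, without the filter on low values (0.0756), with centred arrays (0.051) or with the compared groups alone (0.2).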

How the results depend on the processing

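No member's change turned its direction in a called result under any alternative run. The number of members called moved by more than 1.5 times only in comparisons of experiment 1. In low serum against growing vector cells the 1 call became 3 with quantile normalization, 0 with centred arrays, with no filter and with the compared groups alone, and 2 with an intensity trend or a replicate block. At confluence in vector cells 2 became 1 with no filter or a stricter one, and 0 with the mean of all probe sets or the compared groups alone. With the stricter filter and with the mean of all probe sets, CDT1 and ORC2 did not pass the filter and were not tested. The CDT1 call at confluence was therefore absent there without having failed a test. For shRB in growing cells 1 became 0 with centred arrays, no filter, the compared groups alone or every probe set tested, and at confluence 1 became 0 with the compared groups alone. For shp130 in senescent cells 1 became 0 with centred arrays, no filter, a stricter filter or the compared groups alone. In shRB cells in low serum 1 became 0 with no filter or the compared groups alone. The difference of the shRB effect between senescent and growing cells went from 1 to 2 with quantile normalization, and that against confluence from 3 to 1 with the compared groups alone, as shRB against shp107 went from 4 to 2. Leaving out 1 array gave 0 to 3 calls in low serum and 1 to 2 at confluence in vector cells, 0 throughout for shRB in growing cells, 0 to 1 for shRB at confluence, 0 throughout for shp130 in senescence, 0 to 1, 0 to 5 and 1 to 6 for low serum, confluence and senescence in shRB cells, and 1 to 2, 1 to 2 and 1 to 3 for the differences of the shRB effect against growing, low serum and confluence. The cause was not tested, except that the no-filter and every-probe-set fits adjust over more features and the fit of compared groups alone has fewer arrays. The stricter-filter and probe-set-mean fits also lack CDT1 and ORC2. The labels do not say whether replicate numbers pair the arrays, and the values did not settle it. Same-numbered deviations correlated from -0.38 to 0.49 in experiment 1, with a median of 0.04 and 38 of 120 group pairs over 0.1. In experiment 2 the range was -0.14 to 0.63, with 1 of 3 over 0.1. The replicate block changed 2 of 203 calls, ORC6 in low serum (adjusted p = 0.0406) and ORC2 in experiment 2 senescence (0.0458), which it added. This block was 1 shift shared by all groups of an experiment, so it could not show a pairing within a state. Signal near background limits CDC7, CDT1, CDC6, ORC1 and CDC45.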
